A study of Mus musculus with 6 samples.

Results

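Genes that flank Gnb5 on mouse chromosome 9 were followed in brains that lacked Gb5, the product of Gnb5, and in wild-type brains. The members were a list of 40 genes named as neighbours of Gnb5, and each was read through the probe sets that the platform annotation gives to exactly 1 gene symbol. Of the 40 genes, 34 had such a probe set, 76 probe sets in all, out of 18193 genes and 45037 probe sets tested. The array data covered the brain without its cerebellum from 3 mice labelled Gb5ko (Gb5-deficient, replicates 1 to 3) and 3 labelled Gb5wt (wild type, replicates 4 to 6), 1 array each. The series design calls the 3 samples of each genotype biological replicates, and the labels give both groups as littermates matched for age and sex. For age, strain, the allele and the deleted part of Gnb5 the sources used here give nothing. All levels are the deposited log2 expression values, and every difference is Gb5ko minus Gb5wt on the log2 scale, where 1 is a doubling.

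A targeted allele is inherited together with the linked stretch of its chromosome. Mice that differ at the targeted gene can therefore also differ in the DNA around it, and transcripts of the neighbours are a usual place to look for that. In this design the genotype at Gnb5 and the genotype of the linked DNA cannot be told apart. Gb5 itself forms stable complexes with the R7 family of RGS proteins, which speed the shut-off of G protein signals in neurons.

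The label of the list held for most of it, with an exception. Distance was counted in annotated genes of the RefSeq table of GRCm38.p6, which was used for gene order only. On the lower-coordinate side 24 members, from Myo5c at 2 genes to Adam10 at 82, and on the higher-coordinate side 13, from Gm19531 at 1 to Lrrc1 at 31, lay around Gnb5. Dmxl2, Gldn and Cyp19a1 lay 472, 473 and 477 genes away and are not close neighbours in that table. Only Dmxl2 of these had a probe set. Gldn, Cyp19a1, Gfral, Wdr72, Fam83b and Lipc had none that named 1 gene and are not analysed here.

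Gm19531, a long noncoding RNA, and Myo5c overlap Gnb5 in that table. Gm19531 lies on the minus strand and Gnb5 and Myo5c on the plus strand. The windows of RefSeq (GRCm38.p6) around the starts of Gnb5 (chr9:75306038-75306337, plus strand) and Gm19531 (chr9:75318509-75318808, minus strand) are shown because Gm19531 is the member whose level passed the test. Each holds 250 bases before the start in lower case and the 50 bases after it in capitals, and each has 5 CG dinucleotides.
Gnb5: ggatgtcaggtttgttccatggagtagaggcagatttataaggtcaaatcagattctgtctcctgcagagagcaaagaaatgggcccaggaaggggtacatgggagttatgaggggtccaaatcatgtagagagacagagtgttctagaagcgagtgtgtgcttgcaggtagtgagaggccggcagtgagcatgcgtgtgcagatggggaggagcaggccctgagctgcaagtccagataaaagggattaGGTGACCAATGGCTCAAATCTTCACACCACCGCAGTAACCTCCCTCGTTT
Gm19531: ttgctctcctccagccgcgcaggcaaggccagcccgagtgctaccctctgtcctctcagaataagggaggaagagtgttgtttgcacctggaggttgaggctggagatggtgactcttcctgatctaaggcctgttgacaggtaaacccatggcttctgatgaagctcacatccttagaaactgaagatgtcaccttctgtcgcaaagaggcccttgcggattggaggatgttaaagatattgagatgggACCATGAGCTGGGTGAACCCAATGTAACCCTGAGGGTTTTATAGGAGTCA

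Windows of 3 members that serve motile cilia or sperm are shown because their probe sets are described together below. They are Mns1 (chr9:72438279-72438578, plus strand), Tex9 (chr9:72491910-72492209, minus strand) and Dnaaf4 (chr9:72958535-72958834, plus strand). Capitals mark GTTGCC on either strand, an arm of the X-box palindrome that RFX transcription factors bind. Mns1 held 2 matches, which began at -72 and 16 from the start, Tex9 held 1 at -23 and Dnaaf4 1 at 8. Of all 32851 windows of that length 12.5% held a match. A match is a description of the letters and not a site.
Mns1: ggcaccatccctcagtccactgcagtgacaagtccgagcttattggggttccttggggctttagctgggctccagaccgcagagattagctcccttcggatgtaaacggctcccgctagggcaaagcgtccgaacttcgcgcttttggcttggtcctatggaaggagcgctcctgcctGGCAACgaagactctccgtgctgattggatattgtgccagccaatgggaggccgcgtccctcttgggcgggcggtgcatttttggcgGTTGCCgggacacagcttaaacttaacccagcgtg
Tex9: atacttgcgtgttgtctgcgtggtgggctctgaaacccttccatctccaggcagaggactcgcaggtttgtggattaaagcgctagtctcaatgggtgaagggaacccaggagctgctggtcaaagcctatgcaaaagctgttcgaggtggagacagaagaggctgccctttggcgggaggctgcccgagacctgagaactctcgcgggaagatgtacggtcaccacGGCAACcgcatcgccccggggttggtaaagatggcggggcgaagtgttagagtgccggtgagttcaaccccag
Dnaaf4: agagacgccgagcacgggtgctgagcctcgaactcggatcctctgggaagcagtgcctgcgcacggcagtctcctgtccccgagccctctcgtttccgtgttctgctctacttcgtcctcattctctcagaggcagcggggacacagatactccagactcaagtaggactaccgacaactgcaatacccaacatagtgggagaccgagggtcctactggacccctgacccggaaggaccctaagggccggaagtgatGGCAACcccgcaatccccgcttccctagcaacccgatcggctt

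The targeted gene matched the labels. Its bright probe set read 3.67, 3.00 and 3.56 in the Gb5ko arrays and 8.79, 8.98 and 9.30 in the Gb5wt arrays. Array medians lay between 5.81 and 5.85 in a range of values from 1.91 to 14.4, and correlations between arrays of a group ran from 0.994 to 0.996. Neuronal markers were high on every array, with the mean level of 6 markers between 11.6 and 11.8. Xist and the Y-linked Eif2s3y varied within both groups. Gb5ko replicate 2 was high for both, at 8.31 and 11.3, and the growth hormone gene Gh was high in Gb5ko replicate 3, at 10.6. The count of member probe sets at an unadjusted p under 0.05 is also given without each group's highest array for Eif2s3y or Gh.

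Gm19531 was the only member that passed. In limma with Benjamini-Hochberg adjustment over all probe sets, 1 of 76 member probe sets passed 0.05, beside 0.0266% of all probe sets (0.0222% lower, 0.00444% higher). Gm19531 read 5.81, 5.34 and 5.41 in Gb5ko and 6.67, 6.73 and 6.67 in Gb5wt. The highest Gb5ko array lay below the lowest Gb5wt array, and the Gb5wt arrays differed little among themselves. It fell by 1.17 ± 0.134 (SE, n = 3 per group), 2.25-fold lower (limma adjusted p = 0.039). The exact permutation p of the group means, two-sided, was 0.1, the lower limit for 3 against 3 arrays. Without Gb5ko replicate 1 the difference was -1.31 (limma adjusted p = 0.00832), and without any other array the call was lost, with adjusted p values from 0.114 to 0.27 and differences from -1.18 to -1.08. The call was also lost with Eif2s3y as a covariate, at -1.17 and a limma adjusted p of 0.0598. In bulk tissue, fewer cells of a type and less RNA per cell cannot be told apart. The sources used here do not give the strand that this probe set reads, so transcripts of Gm19531 and Gnb5 cannot be told apart by it.

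**Figure D1:**
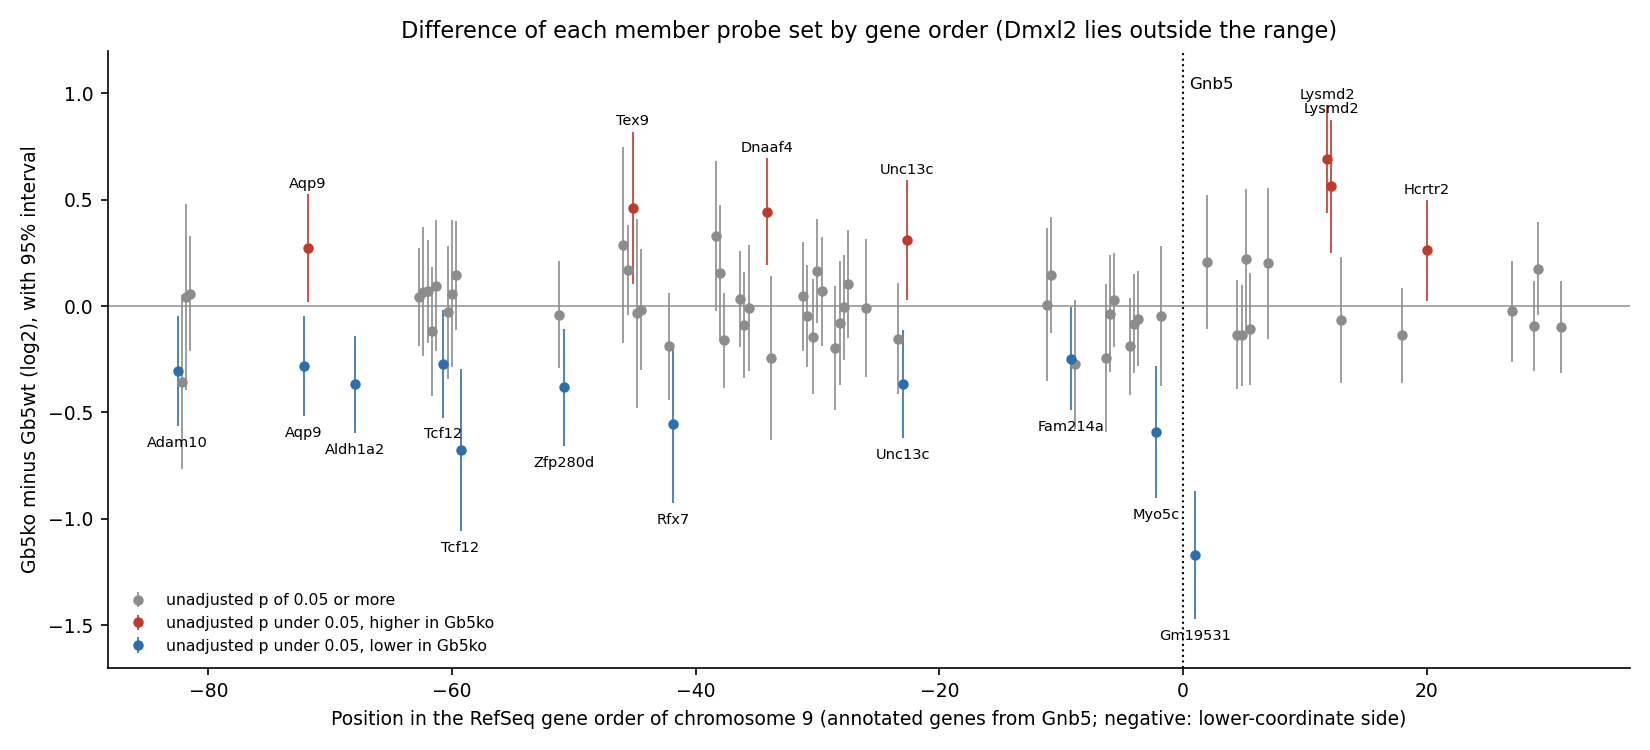
Difference (Gb5ko minus Gb5wt, log2) of 75 member probe sets with the 95% interval of the limma fit, by position in the RefSeq gene order of chromosome 9, with Gnb5 at the dotted line. Gm19531 next to Gnb5 lies lowest at -1.17 and the 2 probe sets of Lysmd2 lie highest at 0.69 and 0.56. Blue and red mark an unadjusted p under 0.05, and Dmxl2 is outside the plotted range.

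The member list leaned slightly to lower values in Gb5ko, through its brighter probe sets. At an unadjusted limma p under 0.05 stood 18 member probe sets, 23.7%, beside 14.4% of all probe sets. Of these, 11 were lower, 14.5% of the members beside 6.33% of all, and 7 were higher, 9.21% beside 8.09%. The median member difference was -0.03 and that of all probe sets 0.03. Within groups, the per-array median of the member values, each centred on its probe set's mean, had a pooled SD of 0.0249. Of 51 member probe sets with a mean of at least 5, 66.7% were negative, beside 44.6% of all such probe sets. Of the 25 dimmer ones 44% were negative, beside 44.3%, and their median was 0.04. Groups did not overlap at 28 member probe sets, 36.8%, beside 21.5% of all. In 19 of the 28 the Gb5ko arrays were the lower ones, 25% of the members beside 8.95% of all, and in 9 the higher ones, 11.8% beside 12.5%. The members were chosen with earlier results known, share 6 arrays and often a gene, and got no test as a list. Without Gb5ko replicate 1 the count at an unadjusted p under 0.05 was 11, 14.5% of members beside 9.74% of all. It was 13, 17.1% beside 10.5%, without each group's highest array for Eif2s3y and 12, 15.8% beside 11.1%, without the highest for Gh. Among probe sets with a mean of at least 7 it was 8, 23.5% of the members beside 22.4% of all.

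**Figure D2:**
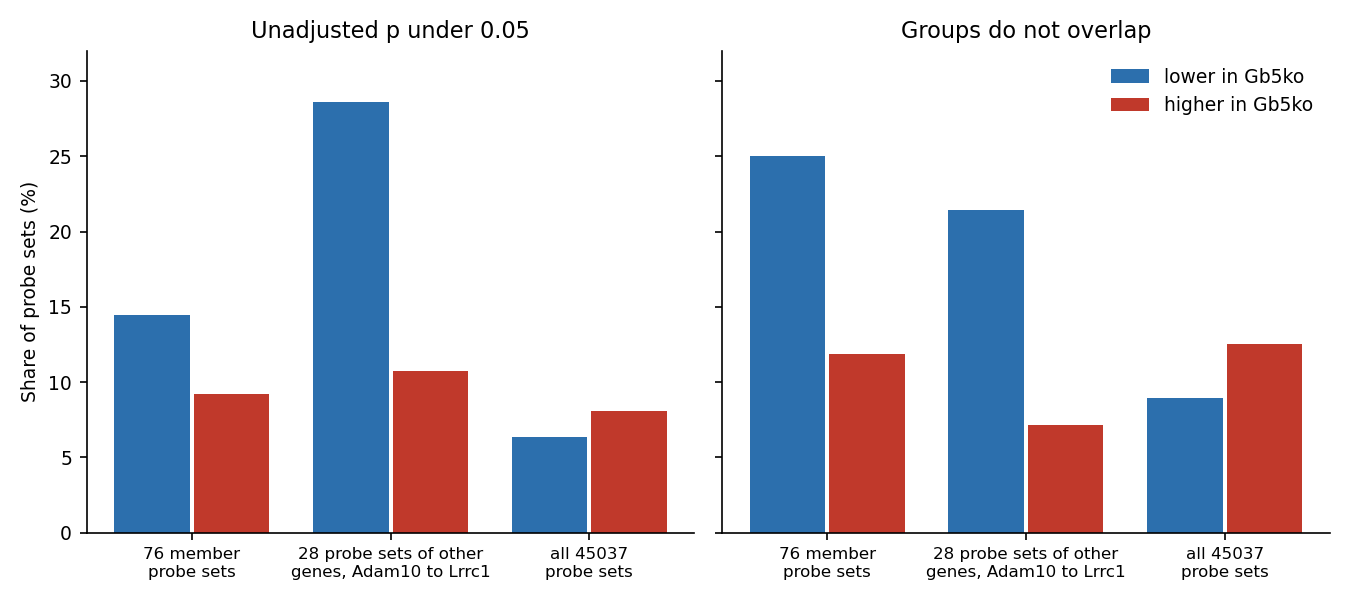
Share of probe sets (%) with an unadjusted limma p under 0.05 (left) and with groups that do not overlap (right), lower in blue and higher in red, for the 76 member probe sets, 28 probe sets of other genes of the same stretch, and all 45037. Members stood at 14.5% lower and 9.21% higher in the left panel, where all probe sets stood at 6.33% and 8.09%.

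Among the member probe sets the size of the differences showed no order by distance. Genes of the stretch that are no members did not enter. Examples are Tmod3 at 10 genes, with differences from -2.94 to 0.09 over its probe sets, and Bmp5 at 16 genes, at -0.89. Across the 76 probe sets, Spearman's rho between the absolute difference and the number of genes from Gnb5 was -0.00, and 0.02 without Gm19531 and Dmxl2, a description of points that share arrays and genes. Within 10 genes of Gnb5 lay 17 member probe sets, of which 3 had an unadjusted p under 0.05, 17.6% beside 14.4% of all probe sets. They were all lower, from Gm19531, Myo5c and Fam214a, beside 6.33% lower of all. At 11 to 25 genes it was 5 of 10, 50%. Of these 4 were higher, 40% beside 8.09% of all, from Lysmd2, Hcrtr2 and Unc13c. At 26 to 50 genes it was 3 of 29, 10.3%, and at 51 to 100 genes 7 of 19, 36.8%. Of the 7, 6 were lower, 31.6% beside 6.33% of all. These bins hold few probe sets, and several share a gene. On the higher-coordinate side 4 of 16 reached that level and on the lower-coordinate side 14 of 60, 25% and 23.3% beside the same 14.4%.

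Between Adam10 and Lrrc1 the arrays also measured 16 genes that are no members, with 28 probe sets. Of these 1 passed over all probe sets, a Tmod3 probe set. An unadjusted limma p under 0.05 was reached by 11, 39.3% beside 14.4% of all probe sets. Of the 11, 8 were lower, 28.6% beside 6.33%, and 3 higher, 10.7% beside 8.09%. Most of the 8 lower ones came from Tmod3, Tmod2 and Bmp5 alone, so the share is not a lean spread over the 16 genes. Bmp5, 16 genes from Gnb5, differed by -0.89 (limma adjusted p = 0.0595). Tmod3 and Tmod2, actin-capping tropomodulins, lie 10 and 11 genes from Gnb5, next to Lysmd2. The passing Tmod3 probe set read 3.09, 3.63 and 4.16 in Gb5ko and 6.38, 6.79 and 6.53 in Gb5wt. It fell by 2.94 ± 0.238 (limma adjusted p = 0.00289). Its 5 probe sets did not go together. The brightest, with 9.99, 9.86 and 9.65 in Gb5ko and 9.93, 9.59 and 9.71 in Gb5wt, overlapped and differed by 0.09 (-0.21 to 0.38). The others differed by -0.85, -0.70 and -0.62. The probe sets of Tmod2 ranged from -0.57 to 0.22. Over the wide stretch from Cyp19a1 to Lrrc1, other genes had 375 probe sets, and 16% of these had an unadjusted p under 0.05, close to the 14.4% of all.

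Lysmd2, a LysM-domain protein of unclear function, had higher values in Gb5ko through both of its probe sets. Its bright probe set read 7.99, 8.21 and 8.21 in Gb5ko and 7.32, 7.56 and 7.47 in Gb5wt. The dimmer one read 5.00, 5.39 and 5.35 in Gb5ko and 4.54, 4.86 and 4.65 in Gb5wt. In both, every Gb5ko array lay above every Gb5wt array. The differences were 0.69 ± 0.112 (95% interval 0.44 to 0.94) and 0.56 ± 0.138 (0.25 to 0.88), 1.61-fold and 1.48-fold, and neither passed (limma adjusted p = 0.137 and 0.203). They differed from each other by -0.13 (-0.40 to 0.15). With 1 array left out the bright probe set stayed between 0.63 and 0.76. Lysmd2 is not overlapped by another gene in the table.

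**Figure D3:**
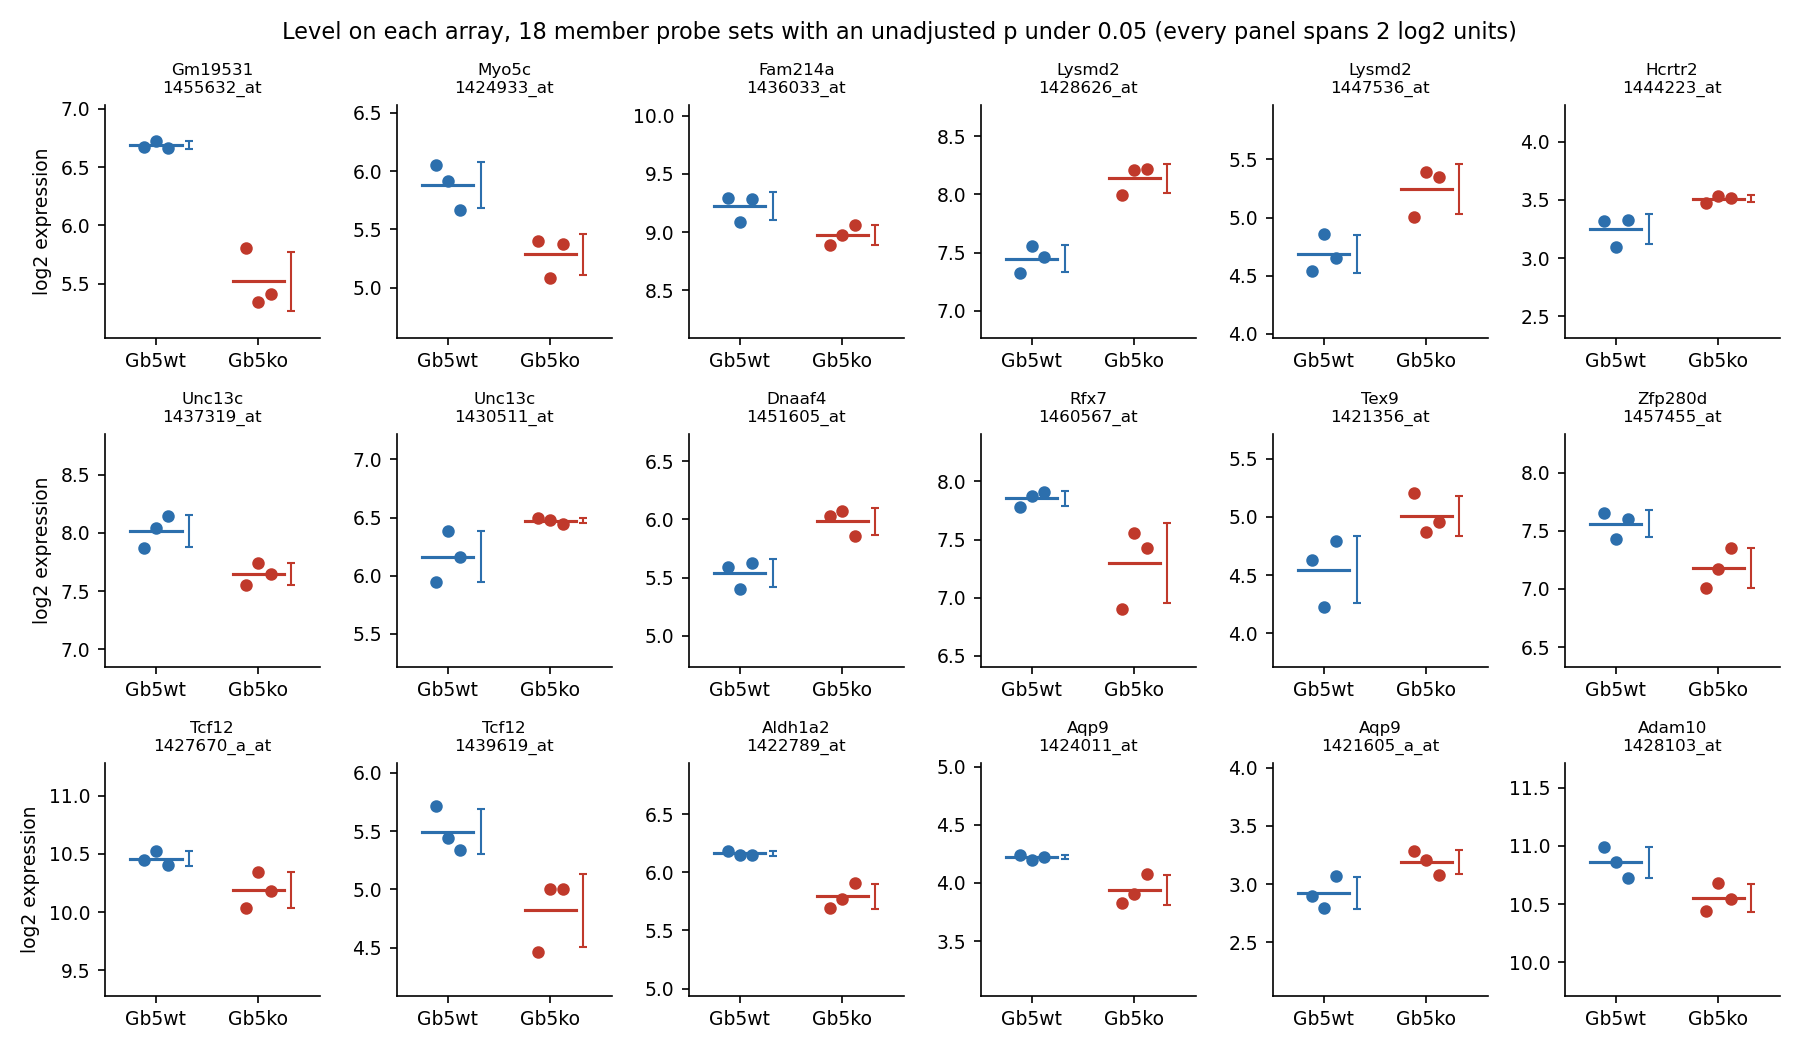
Level (log2 expression) on each array for the 18 member probe sets with an unadjusted p under 0.05, Gb5wt in blue and Gb5ko in red. Points are arrays, horizontal lines are means, bars are the SD (n = 3), and each panel spans the same height. In all 18 panels the groups do not overlap, which adds no support because the panels were picked by a small p on the same values. Gm19531 shows the widest gap, from 5.81 to 6.67.

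Members that move vesicles and organelles were mostly a little lower, and none passed. Of 14 probe sets of 6 such genes 12 had a negative difference, 85.7% beside 44.5% of all probe sets, with a median of -0.08. At an unadjusted p under 0.05 stood 3, 21.4% beside 14.4% of all. Of these 2 were lower, 14.3% beside 6.33% of all, and 1 was higher, 7.14% beside 8.09%. Of 6 neuronal markers 3 were negative and 3 positive, with a median of -0.001. Snap25 and Gad1 stood at -0.33 each with an unadjusted limma p under 0.05, and Slc17a7 at 0.27. The mean level of the 6 ran from 11.60 to 11.73 in Gb5ko and from 11.73 to 11.76 in Gb5wt, which overlap narrowly. All 5 oligodendrocyte markers measured were negative, where 44.5% of all probe sets were. An unadjusted limma p under 0.05 was reached by 2 of them, where 6.33% of all probe sets were lower at that level. Their mean level ran from 10.8 to 11.4 in Gb5ko and from 11.3 to 11.6 in Gb5wt. No marker of either list passed in limma or was listed at 0, and their part in the member values was not tested. Myo5c, a class V myosin of epithelial and secretory cells that overlaps the start of Gnb5, read 5.40, 5.08 and 5.37 in Gb5ko and 6.06, 5.91 and 5.66 in Gb5wt. Its groups did not overlap. The difference was -0.59 ± 0.137 (limma adjusted p = 0.193), 1.51-fold. Myo5c and Gnb5 lie on the same strand, and the sources used here do not say where the probes lie. Transcripts of both genes therefore cannot be told apart by this probe set. Another Myo5c probe set read 3.29, 3.25 and 2.88 against 3.39, 3.15 and 3.01 and differed by -0.05 (-0.38 to 0.28).

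Myo5a, the neuronal class V motor that lies 4 genes from Gnb5, had 3 bright probe sets with small differences, from -0.19 to -0.06. In the brightest, the Gb5ko arrays at 11.99, 12.11 and 11.98 lay below the Gb5wt arrays at 12.32, 12.18 and 12.16 (limma adjusted p = 0.418). Dmxl2, a subunit of rabconnectin-3 that regulates the vesicle proton pump, differed by -0.22 ± 0.104 with separate groups. Scg3, a granin of dense-core vesicles, differed by -0.07 (-0.36 to 0.23). Rab27a, a GTPase of granule exocytosis, ranged from -0.20 to 0.10 over 4 probe sets, and 1 of them had a mean over 5.

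Unc13c, which encodes the vesicle-priming protein Munc13-3, had probe sets with differences of opposite sign. One read 7.56, 7.75 and 7.65 in Gb5ko and 7.87, 8.04 and 8.15 in Gb5wt, a difference of -0.37 ± 0.112 (limma adjusted p = 0.248). Another read 6.50, 6.48 and 6.45 in Gb5ko and 5.94, 6.38 and 6.16 in Gb5wt, a difference of 0.31 ± 0.125 (0.311). Groups were apart in both, in opposite directions. The brightest, with 8.22, 8.56 and 8.34 against 8.46, 8.53 and 8.58, overlapped and differed by -0.15. Unc13c is known mainly from the cerebellum. Of 6 cerebellar markers 4 were positive (Cbln3, Pcp2, Gabra6 and Barhl1, 0.12 to 0.42) and 2 negative (Calb1 at -0.10 and Eomes at -0.31). Calb1 was the brightest, at 12.1 to 12.3 in this tissue without cerebellum. The mean level of the 6 ran from 6.56 to 6.74 in Gb5ko and from 6.43 to 6.66 in Gb5wt. Their part in the Unc13c values was not tested.

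Transcriptional regulators were mixed. Of 12 probe sets of 5 genes, 7 had a negative difference, 58.3% beside 44.5% of all probe sets, with a median of -0.03. At an unadjusted p under 0.05 stood 4, all lower, 33.3% beside 6.33% of all, and 0 passed in limma over all probe sets. Tcf12, which encodes the basic helix-loop-helix protein HEB, read 4.46, 5.00 and 5.00 in Gb5ko and 5.71, 5.44 and 5.34 in Gb5wt through 1 probe set, a difference of -0.68 ± 0.169 (limma adjusted p = 0.205). Its brightest probe set read 10.04, 10.35 and 10.18 in Gb5ko and 10.45, 10.53 and 10.40 in Gb5wt, a difference of -0.27 ± 0.112 (0.321). Both showed separate groups. The other Tcf12 probe sets differed by -0.03, 0.06 and 0.14. In the last of these Gb5ko read 5.30, 5.47 and 5.60 and Gb5wt 5.40, 5.25 and 5.28, which overlap.

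Rfx7, a member of the RFX family of winged-helix factors, read 6.91, 7.56 and 7.43 in Gb5ko and 7.78, 7.87 and 7.91 in Gb5wt through its dimmer probe set. Every Gb5ko array was lower, and replicate 1 was the lowest. The difference was -0.56 ± 0.163 (limma adjusted p = 0.241), and -0.36 without Gb5ko replicate 1. The bright Rfx7 probe set also had separate groups, with a difference of -0.19 ± 0.112. Zfp280d, a zinc-finger gene, read 7.01, 7.17 and 7.35 in Gb5ko and 7.65, 7.43 and 7.60 in Gb5wt through the dimmer of its probe sets, a difference of -0.38 ± 0.121 (limma adjusted p = 0.255). The brighter Zfp280d probe set overlapped, with 8.71, 8.98 and 8.92 against 8.81, 8.92 and 8.99. Leo1, a subunit of the PAF1 elongation complex, differed by 0.20 (-0.15 to 0.55). Onecut1, a homeodomain factor, was dim, with means of 3.88 and 2.91 and differences of 0.01 and 0.15.

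Members of motile cilia and sperm had higher values in their brightest probe sets, and none passed. Over all 7 probe sets of these 3 genes 4 were positive and 3 negative, 42.9% negative beside 44.5% of all probe sets. An unadjusted limma p under 0.05 was reached by 2, both higher, 28.6% beside 8.09% of all. Dnaaf4, an assembly factor of axonemal dynein arms, read 6.03, 6.07 and 5.85 in Gb5ko and 5.59, 5.40 and 5.63 in Gb5wt, a difference of 0.44 ± 0.112 (limma adjusted p = 0.207). A dimmer Dnaaf4 probe set read 3.62, 4.01 and 3.97 against 4.45, 3.86 and 4.02 and differed by -0.24 (-0.63 to 0.14). Tex9, a testis-expressed coiled-coil gene, had 4 probe sets. Its brightest differed by 0.17 with separate groups, and the next read 5.20, 4.87 and 4.95 in Gb5ko and 4.63, 4.22 and 4.79 in Gb5wt, a difference of 0.46 ± 0.159 (limma adjusted p = 0.269). The 2 dim ones differed by -0.02 and -0.03. Mns1, needed for motile cilia and sperm tails, read 5.70, 5.75 and 5.48 against 4.89, 5.79 and 5.39, a difference of 0.29 ± 0.204. Those groups overlapped, and Gb5wt replicate 4 was lowest. Tex9 and Mns1 overlap in the table.

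Ependymal cilia markers were mostly positive. Of 8 such markers 6 were positive and 2 negative, where 44.5% of all probe sets were negative. Among the 6, 1 had an unadjusted limma p under 0.05, Rsph1, where 8.09% of all probe sets were higher at that level. Of the 8 markers 0 passed in limma. Their mean level ran from 5.40 to 5.87 in Gb5ko and from 5.28 to 5.53 in Gb5wt, which overlap. None was listed at 0. Foxj1, the master regulator of motile cilia, differed by -0.07 ± 0.179. Their part in the Dnaaf4, Tex9 and Mns1 values was not tested.

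Metabolic enzymes and channels included a meningeal gene. Aldh1a2, the enzyme that makes retinoic acid and in adult brain is found mainly in meninges, read 5.70, 5.77 and 5.91 in Gb5ko and 6.18, 6.15 and 6.15 in Gb5wt. No arrays overlapped, and the Gb5wt arrays were nearly equal. The difference was -0.37 ± 0.1 (limma adjusted p = 0.222). Of 11 markers of meningeal and vascular fibroblasts 10 were also negative, where 44.5% of all probe sets were negative. An unadjusted limma p under 0.05 was reached by 6, all lower, where 6.33% of all probe sets were. Of these markers 0 passed. Their mean level ran from 7.35 to 7.36 in Gb5ko and from 7.61 to 7.68 in Gb5wt, so the groups were apart, and none was listed at 0. Their part in the Aldh1a2 difference was not tested.

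Aqp9, an aquaglyceroporin, was dim and its probe sets pointed in opposite directions. The brighter read 3.83, 3.91 and 4.08 in Gb5ko and 4.24, 4.20 and 4.22 in Gb5wt, a difference of -0.28 ± 0.104 (limma adjusted p = 0.283). The dimmer read 3.29, 3.21 and 3.08 in Gb5ko and 2.90, 2.79 and 3.07 in Gb5wt, a difference of 0.27 ± 0.113 (0.322). Arrays of the groups did not overlap in either. Hmgcll1, a ketogenic lyase, differed by -0.14 ± 0.0988 with separate groups. Pigb, a mannosyltransferase of GPI-anchor synthesis, ranged from -0.14 to 0.16 over 3 probe sets.

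Signalling members were mixed. Adam10, the membrane protease that sheds many surface proteins, read 10.44, 10.68 and 10.54 in Gb5ko and 10.99, 10.86 and 10.72 in Gb5wt through its bright probe set. All Gb5ko arrays lay below all Gb5wt arrays, by a narrow margin, and the difference was -0.30 ± 0.114 (limma adjusted p = 0.29). A further Adam10 probe set with a mean of 6.30 differed by -0.36 ± 0.181 with overlapping groups, and those with means of 3.71 and 3.51 by 0.04 and 0.06. In the last, Gb5ko read 3.40, 3.75 and 3.46 and Gb5wt 3.41, 3.56 and 3.47.

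Hcrtr2, the orexin receptor 2, read 3.48, 3.54 and 3.52 in Gb5ko and 3.32, 3.10 and 3.32 in Gb5wt, a small difference of 0.26 ± 0.105 at a dim level (limma adjusted p = 0.31). Its groups did not overlap. Nedd4, a ubiquitin ligase, read 11.50, 11.58 and 11.75 in Gb5ko and 10.94, 11.41 and 11.50 in Gb5wt through its brightest probe set, a difference of 0.33 ± 0.156, and the groups met, at 11.50 in both. A dimmer Nedd4 probe set was lower in all Gb5ko arrays, with 8.58, 8.40 and 8.41 against 8.64, 8.60 and 8.63, a difference of -0.16 ± 0.0993. The remaining one differed by 0.15.

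Mapk6, the atypical kinase ERK3 that lies 5 genes from Gnb5, read 9.87, 9.80 and 9.56 against 9.95, 9.87 and 9.81 through its brightest probe set, a difference of -0.13 (-0.39 to 0.12). A dim one read 4.74, 4.36 and 4.27 against 4.43, 4.18 and 4.11, a difference of 0.22 (-0.11 to 0.55). Both overlapped between groups. The others differed by -0.14 and -0.11. Arpp19, an inhibitor of the phosphatase PP2A, differed by -0.24, -0.04 and 0.03 over 3 bright probe sets.

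Fam214a, of unclear function and 9 genes from Gnb5, had 2 probe sets with separate groups, both lower in Gb5ko. The brighter read 8.89, 8.97 and 9.06 in Gb5ko and 9.29, 9.08 and 9.29 in Gb5wt, a difference of -0.25 ± 0.107 (limma adjusted p = 0.338), and the other differed by -0.27 ± 0.135, which did not pass either.

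Membrane, junction and matrix members had 12 probe sets, and 0 had an unadjusted p under 0.05. Among these the junction gene Cgnl1 ranged from -0.12 to 0.10 over 5 probe sets and Prtg, a receptor of the embryo, from -0.09 to 0.03 over 3. Lrrc1, a polarity gene, differed by -0.10, Mlip, which encodes a lamin-interacting protein, by -0.09 and 0.18, and the kidney matrix gene Tinag, at a mean of 2.52, by -0.02. Members of cell survival and growth had 4 probe sets, and 0 of them reached that level. Bcl2l10, a BCL2 family gene 2 genes from Gnb5, differed by 0.21 (-0.11 to 0.52) at a mean of 3.18. Rsl24d1, of ribosome assembly, differed by -0.01, and Ccpg1, a receptor of endoplasmic reticulum autophagy, by 0.05 and -0.05.

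Whether probe sets of the same gene differed in their response was tested directly. For each gene, the per-array difference between a further probe set and the brightest was compared between genotypes in limma over 16752 such pairs. Of 42 member pairs from 22 genes, 0 passed after adjustment and 10 had an unadjusted p under 0.05, 23.8% beside 14.9% of all pairs (adjusted, 0.0597% of all). These 10 came from 9 genes. In 20 of the 42 pairs the signs were opposite, 47.6% beside 41.6% of all pairs.

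Dnaaf4 and Aqp9 showed the widest gaps. In Dnaaf4 the dimmer probe set minus the brighter was -2.12 in Gb5ko and -1.43 in Gb5wt, a gap of -0.69 ± 0.181 (limma adjusted p = 0.201). For Aqp9 the gap was 0.55 ± 0.153 and for Myo5c 0.55 ± 0.173. Unc13c had a gap of 0.46 ± 0.152, Nedd4 of -0.49 ± 0.185, Adam10 of 0.36 ± 0.136, Mapk6 of 0.35 ± 0.135 and Zfp280d of -0.34 ± 0.14. Tcf12 had gaps on either side of its brightest probe set, 0.42 ± 0.136 and -0.40 ± 0.157. In all 10 pairs the per-array values of the groups did not overlap. These pairs were picked by a small p on the same values, so that adds no support. The dimmer member of the Dnaaf4, Aqp9, Myo5c, Adam10 and Mapk6 pairs had a mean under 5, and in a fit of pairs with both means at 5 or more, 6 pairs reached that level. The sources used here do not say where within a gene the probes lie.

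**Figure D4:**
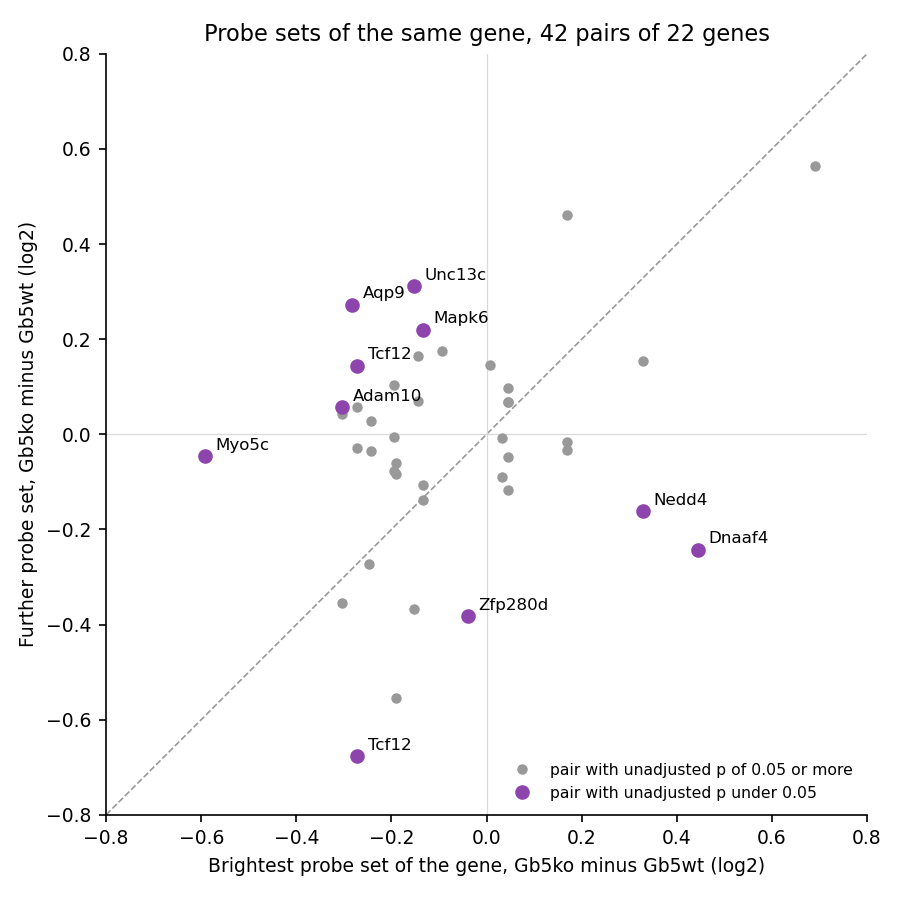
Difference (Gb5ko minus Gb5wt, log2) of a further probe set against that of the brightest probe set of the same gene, for 42 pairs of 22 member genes, with the line of equality dashed. Purple marks the 10 pairs with an unadjusted p under 0.05. Dnaaf4 lies at 0.44 and -0.24, Aqp9 at -0.28 and 0.27, and the grey point at upper right is Lysmd2 at 0.69 and 0.56.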

How the data were processed

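The deposited table holds 1 normalized log2 value per probe set and array, and the authors made it with RMA and Partek, per the submitters' processing notes, with no version given. Dim probe sets keep a positive value under RMA, and detection calls were not used. After removal of 64 control probe sets, 45037 were tested. Annotation gave 1 gene to 34945 of them, several to 932 and none to 9160. Members were placed in the RefSeq table by gene symbol.

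The genotypes were compared by a linear model with moderated variances (limma 3.58.1 under R 4.3.3), two-sided, with Benjamini-Hochberg adjustment over all probe sets, a threshold of 0.05 and 4 residual degrees of freedom. The median standard error was 0.123, and the number of arrays limits the precision. Both fits were tested on simulated data. With a 1.5-fold change 23 of 50 simulated probe sets and 20 of 50 simulated pairs passed, and with a 2-fold change 48 and 49. A change of 1.5-fold or less can therefore be missed, and a member that did not pass is not shown to be unchanged. Pairs of probe sets were fitted in the same way. Array values are given for probe sets with an unadjusted p under 0.05, for Gm19531 and for the pairs at that level, and the others by their difference. Those of Myo5a, Mns1 and Tmod3 were added after their values were seen. The members and the lists were chosen with earlier results of these data known. Alternatives covered filters, normalizations, eBayes options, weights, a covariate, narrower lists and left-out arrays. Promoter windows came from RefSeq, where 37 of 40 members had one. Figures used matplotlib 3.10.9.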

Additional observations from a re-analysis of the deposited data

How the results depend on the processing

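Settings for lists without Dmxl2, the counts of groups that do not overlap and the narrower stretch of other genes were chosen after seeing the data. No paired analysis was possible because Gb5ko carries replicates 1 to 3 and Gb5wt 4 to 6. The count of member probe sets past the adjusted threshold, 1, was 0 with a mean of at least 7, with Eif2s3y as a covariate, without the arrays of highest Eif2s3y or of highest Gh in each group, and without Gm19531, and 0 to 1 with 1 array left out. The 18 at an unadjusted limma p under 0.05 became 8 with a mean of at least 7, 23.5% beside 22.4% of all such probe sets. The count was 11 with 1 probe set per gene, 32.4% beside 17.4%, and 8 within 25 genes, 29.6% beside 14.4%. Fewer were tested under these lists. With 1 array left out it was 11 to 17, 14.5% to 22.4% beside 9.74% to 15% of all. The 28 of 76 with groups apart became 15 of 34, 16 of 34 and 12 of 27 under those lists. With 1 array left out it was 33 to 36 of 76. Smaller groups are apart more often by chance, so the rise is not read as a stronger result. For the list within 25 genes the share over all probe sets stays 21.5%, and for the other settings it was not computed. The median of -0.0342 was -0.0894 with a mean of at least 5, -0.0889 with 7, -0.0595 after quantile and -0.0594 after loess normalization, -0.0965 with 1 probe set per gene, -0.0651 within 25 genes, and -0.0747 to -0.0138 with 1 array left out. Pairs at an unadjusted p under 0.05 numbered 6 with both means at least 5 and 7 to 10 with 1 array left out, and 0 passed after adjustment in limma in any of these. Normalizing again moved the median of all probe sets by at most -0.0221. Of 423 values of 28 named probe sets, 8 lost a call, all of Gm19531, and 0 gained one. Without the arrays of highest Eif2s3y and of highest Gh, Gm19531 differed by -1.09 and -1.12 (limma adjusted p = 0.469 and 0.286).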

Other observations

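Among the brightest member probe sets, those with a mean of at least 9, groups did not overlap at 7 of 20, and in all 7 the Gb5ko arrays were lower. Over all probe sets with such a mean the groups did not overlap at 32.9%, with Gb5ko lower in 1278 and higher in 1505 of 8461. The 7 came from Myo5a, Dmxl2, Fam214a, Rfx7, Tcf12, Adam10 and Mlip, and this split was chosen after the values were seen.

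GTTGCC was found in the promoter windows of 11 of the 37 members with a window. It was in 12 of their 51 windows, 23.5%, beside 12.5% of all 32851 windows. Besides Mns1, Tex9 and Dnaaf4 these were Myo5c, Fam214a, Unc13c, Ccpg1, Aqp9, Hmgcll1, Hcrtr2 and Gfral, whose differences, where measured, had both signs.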
